A study of Rattus norvegicus with 9 samples.

Results

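Interferon-induced genes, their regulators and the class I peptide processing genes were followed in rat pancreatic stellate cells on 3 culture surfaces. Pancreatic stellate cells are the matrix-producing, fibroblast-like cells of the pancreas. The set was a list of 39 gene symbols, drawn up with earlier results of these data known. Membership is by symbol and sets no threshold on a measured value. Of these, 37 were matched by the array's probe table to an entry with a single gene symbol, among 14506 genes measured in all, and Xaf1 and Parp14 were not analysed here. The cells came from male Sprague Dawley rats, with no age, genotype change or added agent in the labels, and were seeded in equal numbers in 10 cm dishes. All were kept for 72 h in Iscove's medium with 10% foetal bovine serum. The surface was plastic (4 arrays), collagen I (3 arrays) or Matrigel, a laminin-rich extract of basement membrane (2 arrays). Total RNA was hybridised to Affymetrix Rat Gene 1.0 ST arrays, and the deposited values are log2 levels made with RMA.

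Each array title carries a letter that recurs between surfaces: A on all 3, P and Z on plastic and collagen, and S on plastic and Matrigel. The labels state neither what the letter stands for nor whether the arrays are of different animals. A p-value here therefore reflects the variation among these samples alone, which may be technical. Levels are given below in the order A, P, S, Z for plastic, A, P, Z for collagen and A, S for Matrigel. A difference is a fitted difference of group means on the log2 scale with its standard error. It is said to have passed, risen or fallen where limma's adjusted p was under 0.05, with Benjamini-Hochberg adjustment over all 14506 genes.

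Type I interferons act through a receptor pair and the kinases JAK1 and TYK2 to form a complex that includes STAT2 and IRF9 and binds the interferon-stimulated response element in promoters and induces the antiviral genes. Interferon gamma acts through the gamma-activated site in promoters and through IRF1, and is the stronger inducer of the immunoproteasome and of the TAP peptide transporter. Many sensors and regulators of the pathway are themselves induced by it, and stromal cells such as fibroblasts carry low levels of these genes without an infection.

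The array medians lay between 4.08 and 4.18, so that all arrays were on a common scale. Of 15 stellate cell and fibroblast markers, collagen and vimentin genes were bright on every surface, with Col1a1 at 12.72 ± 0.18 (SD, n = 4) on plastic, 12.76 ± 0.24 (n = 3) on collagen and 12.50 ± 0.07 (n = 2) on Matrigel. Gfap, Rgs5 and Ngfr were dim on all surfaces, where dim means a group mean under log2 4.25, the 40th percentile of all genes. On Matrigel against plastic 3 of the 15 fell and none rose, with 11 lower in sign and a median of -0.32. Over all genes 5.85% fell there and 4.52% rose. Des, which encodes the stellate cell filament desmin, fell by 1.93 (SE 0.13, limma adjusted p = 0.000208), Lum, the proteoglycan lumican, by 2.43 (SE 0.50, adjusted p = 0.0173) and the collagen gene Col3a1 by 0.93 (SE 0.21, adjusted p = 0.0238). The mean of the 15 per array ran from 8.69 to 8.94 on plastic, from 8.51 to 8.78 on collagen and from 8.10 to 8.38 on Matrigel, and so was lowest on Matrigel, like the members. On collagen 1 of the 15, Des, fell, where 3.17% of all genes did. The part of this marker difference in the results was not tested. Among markers of other cells, 10 of 11 measured lymphocyte and natural killer cell genes and 4 of 5 plasmacytoid dendritic cell genes were dim on every surface. Of the 21 measured macrophage genes, 3 rose on Matrigel against plastic, and so did 5 of 9 islet and 2 of 9 acinar genes, beside 4.52% of all genes. In these bulk samples, fewer cells of a type and less RNA per cell cannot be told apart.

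Sequence around the response element is shown for members that fell on at least one matrix, and for the TAP genes, which carry the same motif and did not pass in any comparison. The windows are from RefSeq promoters on the GRCr8 assembly, 250 bases before to 50 after the annotated start, which were given for 28 of the 37 members and not for Dhx58, Ifit1, Ifit2, Mx2, Adar, Samd9l, Rtp4, Isg15 and Usp18. They read 5′ to 3′ on the strand of the gene, and capitals mark matches to the core of the response element, which is GAAA, any 2 bases and GAAA again, or on the other strand TTTC, any 2 bases and TTTC.
Ifih1, chr3:67683998-67684047, minus strand: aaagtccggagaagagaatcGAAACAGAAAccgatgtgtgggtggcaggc
Oas1a, chr12:41330405-41330460, plus strand: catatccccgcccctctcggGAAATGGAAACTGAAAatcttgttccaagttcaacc
Eif2ak2, chr6:21941118-21941167, plus strand: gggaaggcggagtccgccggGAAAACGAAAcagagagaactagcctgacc
Bst2, chr16:18255063-18255118, minus strand: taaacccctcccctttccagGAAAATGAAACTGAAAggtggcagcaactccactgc
Ifitm3, chr1:205541773-205541822, minus strand: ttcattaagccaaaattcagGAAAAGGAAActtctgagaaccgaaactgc
Ifi44, chr2:243303837-243303886, minus strand: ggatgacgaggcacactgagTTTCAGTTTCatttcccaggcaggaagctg
Ifi27, chr6:128355208-128355257, plus strand: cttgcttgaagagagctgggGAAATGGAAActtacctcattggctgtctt
Tap1, chr20:4668635-4668684, minus strand: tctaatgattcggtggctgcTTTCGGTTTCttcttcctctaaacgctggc
Tap2, chr20:4652308-4652357, minus strand: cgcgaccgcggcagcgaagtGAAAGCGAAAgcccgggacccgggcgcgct

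In Oas1a and Bst2 a pair of matches overlapped by their shared GAAA, and in Oas1a the pair ran from -41 to -26 relative to the start. The Bst2 pair ran from -131 to -116, and its first match also overlapped a match to the gamma-activated site. The motif was present in 17 of the 28 member promoters (60.7%) and in 3.92% of all 33469 RefSeq promoters of that length. Besides the TAP genes, Irf7, Nmi, Ifit3, Rsad2, Gbp2, Lgals3bp, Dtx3l and Psmb8 carried it and did not pass in any comparison of the main fit. Their windows are not shown. The gamma-activated site, TTCNNNGAA, which is its own reverse complement, was present in 6 member promoters (21.4%), those of Irf1, Irf9, Oas1a, Bst2, Ifitm3 and Psmb8, and in 8.87% of all promoters. Matches to letters are a description and not evidence of binding. Stat2 and Parp9, which fell on Matrigel, and Cmpk2 and Trim25, which fell on collagen, had no match to the core in this window. The median Matrigel minus plastic difference was -0.82 over the 17 members with the core, -0.65 over the 11 without it and -1.36 over the 9 with no promoter sequence given. For collagen minus plastic these medians were -0.49, -0.48 and -0.72. The core was not looked for in those 9, so the medians do not compare all members with and without it.

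On Matrigel, 11 of the 37 members fell against plastic and none rose, where 10.4% of all genes passed in either direction, 5.85% as lower and 4.52% as higher. The 11 were the sensor Ifih1, the transcription factor Stat2, the antiviral effectors Ifit1, Oas1a, Eif2ak2 and Samd9l, the membrane proteins Bst2 and Ifi27, the cytoplasmic protein Ifi44, the ubiquitin-like protein Isg15 and the ADP-ribosyltransferase family gene Parp9. The median difference over the 37 was -0.83, with a range of -2.65 to 0.12, and over all genes it was -0.01. Of the 37, 35 were lower in sign, and in 26 both Matrigel arrays lay below all 4 plastic arrays, against 16.6% of all genes. An unadjusted p under 0.05 with a lower mean was reached by 28 members and by 13.4% of all genes, beside 24.1% of all genes in either direction. The number that passed was 2, Ifit1 and Bst2, without the Matrigel array of letter A, 5 without the plastic array of letter A, 6 without that of letter Z and 17 without that of letter P. Ifit1 and Bst2 passed in all 21 alternative fits. All genes that passed numbered 989 without plastic array A, 1045 without plastic array Z and 1163 without plastic array P. With the title letter as a fixed block, 33 members fell on Matrigel, the 11 among them, and all 37 were lower in sign, with a median of -1.15. The 4 that did not pass were Irf1, Adar, Tap1 and Tap2. All genes that passed numbered 1504 with and without that block, which left 3 residual degrees of freedom. The letters were not read as pairs between Matrigel and plastic, since the deviations of the letter A arrays correlated negatively across genes (r = -0.131). For letter S r was 0.406. The deviations of the 2 Matrigel arrays are exact opposites, so both values rest on 1 set of Matrigel deviations. The block sets Matrigel against plastic mainly within letters A and S, whose plastic arrays both lay above P and Z in 32 members. Its Matrigel values, here and for single genes below, are therefore given as an alternative only.

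On collagen, 5 members fell against plastic and none rose: Eif2ak2, Cmpk2, Bst2, Ifitm3 and Trim25. Over all genes 6.12% passed in either direction, 3.17% as lower and 2.95% as higher. The median over the 37 members was -0.56, with a range of -2.00 to 0.36, beside 0.00 over all genes. In sign 35 members were lower, and in 12 all 3 collagen arrays lay below all 4 plastic arrays, against 9.20% of all genes. An unadjusted p under 0.05 with a lower mean was reached by 20 members and by 10.1% of all genes, beside 19.0% of all genes in either direction. With the title letter as a paired block, which the deviations of the collagen and plastic arrays allowed, 10 members fell, the same 5 genes and Irf7, Ifi35, Mx1, Mx2 and Rsad2. Of all 14506 genes, 1072 passed in that fit, 560 as lower, beside 888 and 460 without the block. The fit took in all 9 arrays, so the Matrigel arrays were blocked by letter as well. Only Ifitm3 passed without collagen array P, without collagen array Z, without plastic array A and without plastic array Z. Without plastic array S 2 members passed, and without plastic array P 10 passed. All genes that passed in these fits numbered between 552 and 732.

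Between Matrigel and collagen no member passed, whereas 2.67% of all genes did, 1.45% as lower and 1.21% as higher on Matrigel. The median was -0.34 over the members and -0.02 over all genes, with 30 members lower in sign. By limma, 6 members reached an unadjusted p under 0.05, all of them lower on Matrigel, where 9.09% of all genes did so and 16.9% in either direction: Ifit1, Oas1a, Samd9l, Ifi44, Ifi27 and Usp18. In 13 members both Matrigel arrays lay below all collagen arrays, against 16.4% of all genes. The count lower in sign was 20 without Matrigel array A and 24 without collagen array A. The Matrigel and collagen comparisons with plastic share the plastic arrays, so their values are set side by side and not correlated. Group means ran plastic, collagen, Matrigel from high to low in 28 of the 37 members. Plastic was the highest in 34, and Matrigel the lowest in 29. Only Eif2ak2 and Bst2 passed on both matrices and 14 members on at least one.

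**Figure D1:**
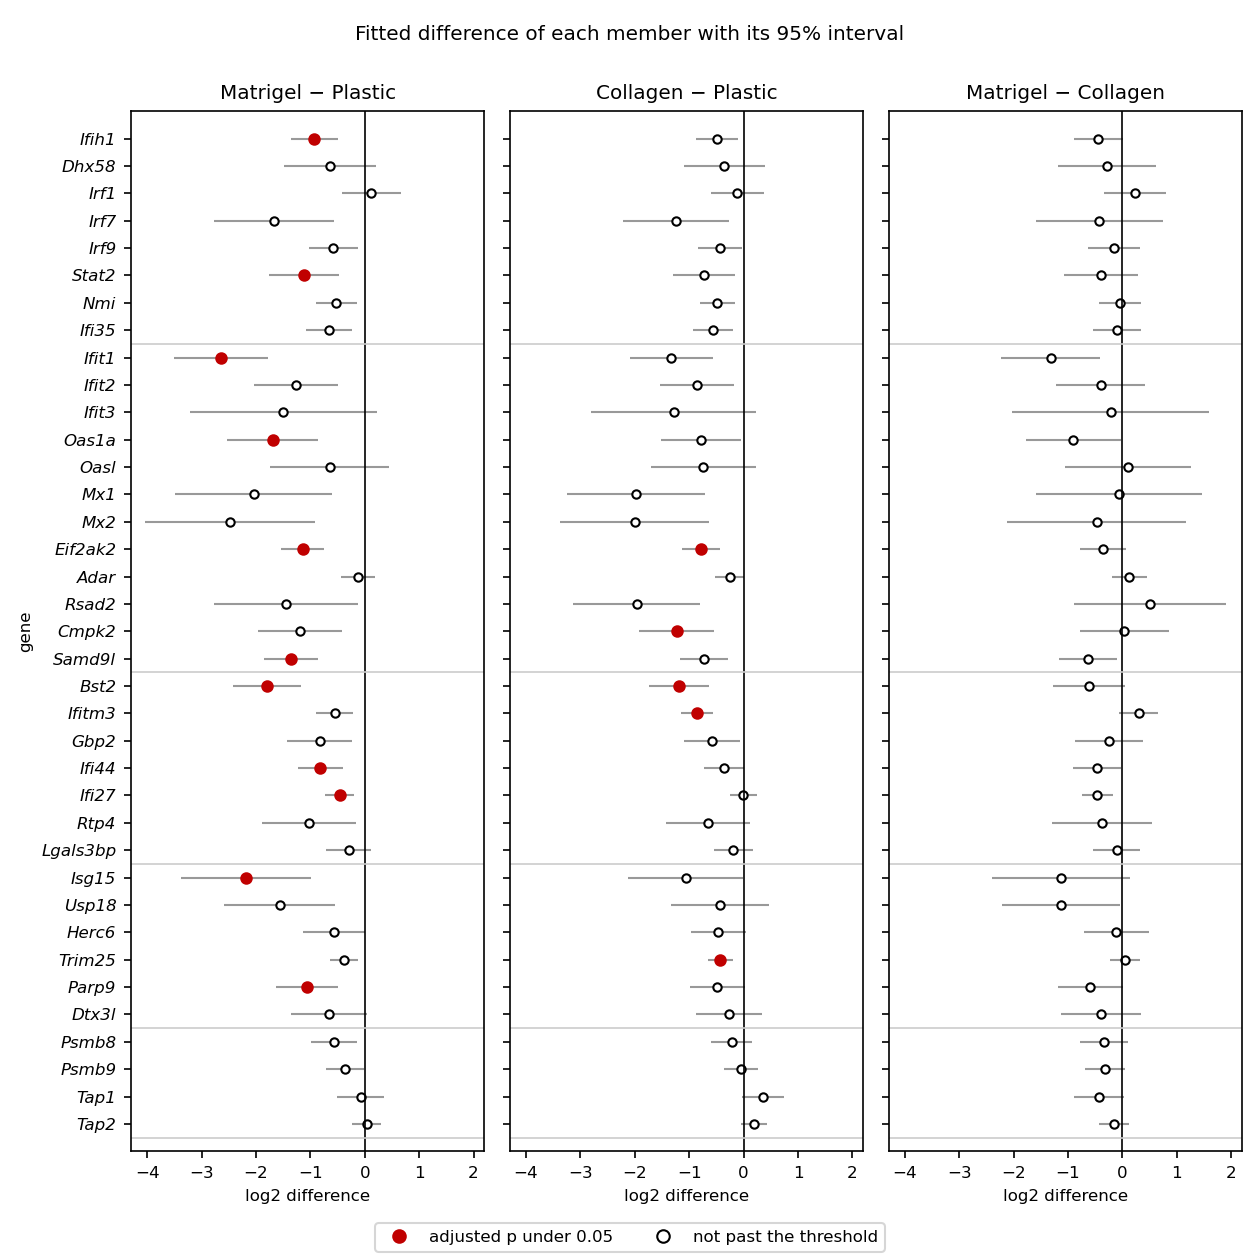
Fitted log2 difference (x axis) of each of the 37 members (y axis, by role) with its 95% confidence interval in the 3 comparisons, filled red where limma's adjusted p was under 0.05. In the left panel 35 points lie below 0 and 11 are filled, in the middle panel 35 lie below 0 and 5 are filled, and in the right panel none is filled.

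Among the sensors and amplifying regulators, 2 of 8 fell on Matrigel and none passed on collagen. Beside the counts of this and the later role groups, 5.85% of all genes fell on Matrigel and 3.17% on collagen. Ifih1 encodes MDA5, a cytosolic sensor of long double-stranded RNA. It read 7.92, 7.26, 7.83 and 7.67 on plastic, 7.19, 7.09 and 7.26 on collagen, and 6.52 and 6.96 on Matrigel. Both Matrigel arrays lay below every other array, while plastic array P lay within the range of the collagen arrays. Ifih1 fell on Matrigel by 0.93 (SE 0.19, limma adjusted p = 0.0168), and collagen minus plastic was -0.49 (SE 0.17, adjusted p = 0.145). Stat2, the STAT of the interferon-stimulated complex, read 9.43, 8.62, 9.30 and 8.99 on plastic, 8.75, 8.18 and 8.16 on collagen, and 7.60 and 8.33 on Matrigel. It fell on Matrigel by 1.12 (SE 0.28, limma adjusted p = 0.0409), with no overlap between the Matrigel and plastic arrays, and on collagen the difference was -0.72 (SE 0.25, adjusted p = 0.155). The Stat2 call ended when any one of 6 arrays was left out, Matrigel array A among them, where the difference was -0.76. It also ended after repeated quantile normalization, with every entry tested, with the compared groups only, with array weights, with only plastic arrays A and S, and with the macrophage mean as a covariate, at adjusted p-values of up to 0.112 by limma. Leaving out Matrigel array A ended the Ifih1 call too, at -0.71, and so did fitting the compared groups only (adjusted p = 0.0584).

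Irf7, the transcription factor that amplifies interferon production, read 10.10, 8.71, 9.93 and 9.12 on plastic, 8.95, 7.75 and 7.95 on collagen, and 7.29 and 8.30 on Matrigel. The arrays of plastic stood above both Matrigel arrays, yet the spread within each surface was 0.64 or more (SD). The difference was -1.67 on Matrigel (SE 0.48, limma adjusted p = 0.066) and -1.25 on collagen (SE 0.43, adjusted p = 0.149). Irf9, the DNA-binding partner of the STAT complex, differed by -0.58 on Matrigel (SE 0.20, limma adjusted p = 0.117) and by -0.43 on collagen (SE 0.18, adjusted p = 0.234). Nmi and Ifi35, which encode interacting proteins induced by interferon, differed by -0.52 (SE 0.16) and -0.65 (SE 0.18) on Matrigel, with limma adjusted p-values of 0.0836 and 0.0594. Dhx58, encoding the RIG-I-like receptor LGP2, read 7.02, 5.97, 7.28 and 6.32 on plastic and 5.71 and 6.31 on Matrigel. Its groups overlapped, at -0.64 (SE 0.37, limma adjusted p = 0.353), and with the title letter as a block the difference was -1.11 (adjusted p = 0.0075). Irf1, the factor most tied to interferon gamma, read 6.18, 5.86, 6.48 and 6.11 on plastic, 6.39, 6.21 and 5.52 on collagen, and 6.22 and 6.33 on Matrigel. All 3 groups overlapped, with 0.12 (SE 0.24, limma adjusted p = 0.84) for Matrigel and -0.11 (SE 0.21, adjusted p = 0.838) for collagen minus plastic.

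**Figure D2:**
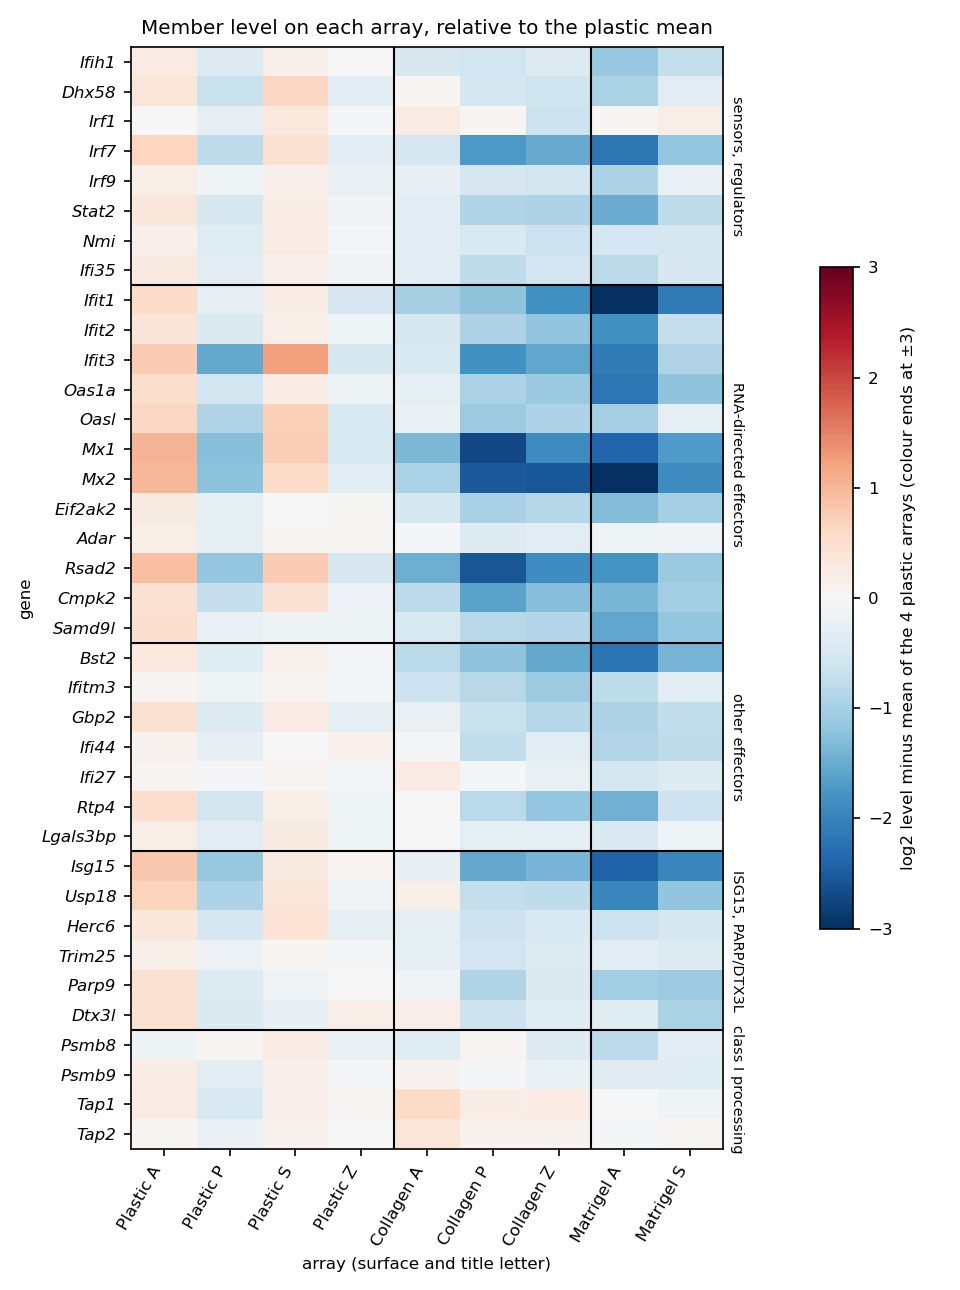
Log2 level of each member (rows, by role) on each of the 9 arrays (columns, by surface and title letter) minus the mean of the 4 plastic arrays of that gene, with blue for lower and red for higher and colours ending at 3 in either direction. The Matrigel columns are blue for most rows outside Irf1, Adar, Tap1 and Tap2, and plastic arrays A and S are redder than P and Z.

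The 12 effectors directed at RNA or its translation included the members with the widest differences, and 4 fell on Matrigel and 2 on collagen. Ifit1, which binds the ends of foreign RNA and blocks its translation, read 8.15, 7.29, 7.79 and 7.09 on plastic, 6.59, 6.38 and 5.77 on collagen, and 4.40 and 5.46 on Matrigel. The 3 surfaces did not overlap. Ifit1 fell on Matrigel by 2.65 (SE 0.38, limma adjusted p = 0.0039), a 6.26-fold difference. On collagen the difference was -1.33 (SE 0.34, adjusted p = 0.0559), and Matrigel minus collagen was -1.32 (SE 0.40, adjusted p = 0.138). Oas1a makes the oligoadenylate messenger that activates RNase L, and read 7.89, 6.80, 7.58 and 7.21 on plastic, 7.07, 6.42 and 6.25 on collagen, and 5.20 and 6.15 on Matrigel. Both Matrigel arrays lay below all others, and the collagen and plastic ranges overlapped through collagen array A and plastic array P. Oas1a fell on Matrigel by 1.69 (SE 0.37, limma adjusted p = 0.0217), a call that ended without Matrigel array A (-1.22), without plastic array A, with the compared groups only and with the macrophage covariate. On collagen it differed by -0.79 (SE 0.32, adjusted p = 0.227).

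Eif2ak2, encoding the double-stranded RNA-activated kinase PKR, read 8.49, 7.92, 8.22 and 8.25 on plastic, 7.70, 7.26 and 7.35 on collagen, and 6.93 and 7.23 on Matrigel. Its levels were separated between all 3 surfaces. It fell by 1.14 on Matrigel (SE 0.17, limma adjusted p = 0.00513) and by 0.78 on collagen (SE 0.15, adjusted p = 0.0196). Without Matrigel array A the first call was just lost (-0.99, adjusted p = 0.0516), and the second was lost without collagen array P, collagen array Z, plastic array A or plastic array Z. Samd9l, an antiviral and growth-restraining gene, read 7.12, 6.43, 6.48 and 6.47 on plastic, 6.17, 5.80 and 5.74 on collagen, and 5.07 and 5.47 on Matrigel. Again no surface overlapped another, and on plastic array A stood apart from 3 nearly equal arrays. Samd9l fell on Matrigel by 1.36 (SE 0.22, limma adjusted p = 0.00671), a call that ended without Matrigel array A (-1.15) and with the macrophage covariate (adjusted p = 0.0608), and differed on collagen by -0.72 (SE 0.19, adjusted p = 0.0703). Cmpk2, a mitochondrial nucleotide kinase gene that neighbours Rsad2, read 6.53, 5.39, 6.52 and 5.90 on plastic, 5.29, 4.47 and 4.80 on collagen, and 4.72 and 5.07 on Matrigel. All plastic arrays lay above all others, and the collagen and Matrigel ranges overlapped. It fell on collagen by 1.23 (SE 0.30, limma adjusted p = 0.0497), at the edge of the threshold and lost when any of 8 arrays was left out, among them each collagen array, with every entry tested and with the compared groups only. On Matrigel it differed by -1.19 (SE 0.34, adjusted p = 0.0631).

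The largest fitted differences on collagen belonged to 3 members that did not pass. Mx2, a dynamin-like antiviral GTPase, read 9.53, 7.31, 9.08 and 8.21 on plastic, 7.59, 6.02 and 5.98 on collagen, and 5.46 and 6.66 on Matrigel. Plastic array P lay below collagen array A, and the spread on plastic was 0.98 (SD). The differences were -2.47 on Matrigel (SE 0.68, limma adjusted p = 0.0556) and -2.00 on collagen (SE 0.60, adjusted p = 0.103). Mx1, its paralog, read 7.26, 4.98, 6.98 and 5.78 on plastic, 4.90, 3.55 and 4.35 on collagen, and 3.87 and 4.54 on Matrigel. Its mean on Matrigel was dim, so that the difference from plastic was at least 1.85 (limma adjusted p = 0.0824), and on collagen it was -1.98 (SE 0.56, adjusted p = 0.0832), with no plastic array in the range of either matrix. Rsad2 encodes viperin, which makes a chain-terminating nucleotide, and read 7.26, 5.19, 7.11 and 5.87 on plastic, 4.88, 3.79 and 4.50 on collagen, and 4.55 and 5.25 on Matrigel. Collagen arrays lay below all plastic arrays, at -1.97 (SE 0.51, limma adjusted p = 0.0636), while plastic array P lay below Matrigel array S, at -1.45 (SE 0.58, adjusted p = 0.169).

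Ifit2, a translation inhibitor related to Ifit1, differed by -1.26 on Matrigel (SE 0.34, limma adjusted p = 0.0501) and -0.86 on collagen (SE 0.30, adjusted p = 0.154), with no plastic array overlapping either matrix. Ifit3, a partner of Ifit1, had the widest spread on plastic, at 7.91, 5.60, 8.37 and 6.67. With 6.68, 5.31 and 5.57 on collagen and 5.05 and 6.23 on Matrigel its surfaces overlapped, at -1.50 on Matrigel (SE 0.75, limma adjusted p = 0.274) and -1.28 on collagen (SE 0.66, adjusted p = 0.35). With the title letter as a block Ifit3 was at -2.43 on Matrigel (limma adjusted p = 0.00462) and -0.82 on collagen (adjusted p = 0.0703). Oasl, related to the oligoadenylate synthetases, differed by -0.65 on Matrigel (SE 0.48, limma adjusted p = 0.49) and -0.74 on collagen (SE 0.43, adjusted p = 0.409), and with that block by -1.26 (adjusted p = 0.0104) and -0.46 (adjusted p = 0.131). Adar, the adenosine deaminase that edits double-stranded RNA, read 8.18, 7.74, 8.07 and 8.03 on plastic, 7.95, 7.61 and 7.69 on collagen, and 7.87 and 7.89 on Matrigel. It was the flattest of the 12, with overlapping groups at -0.12 on Matrigel (SE 0.13, limma adjusted p = 0.661) and -0.25 on collagen (SE 0.12, adjusted p = 0.299). Probes for IFIT, OAS, MX, IFITM and GBP genes can also read near-identical paralogs, so that a value for one of these members may include its relatives.

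**Figure D3:**
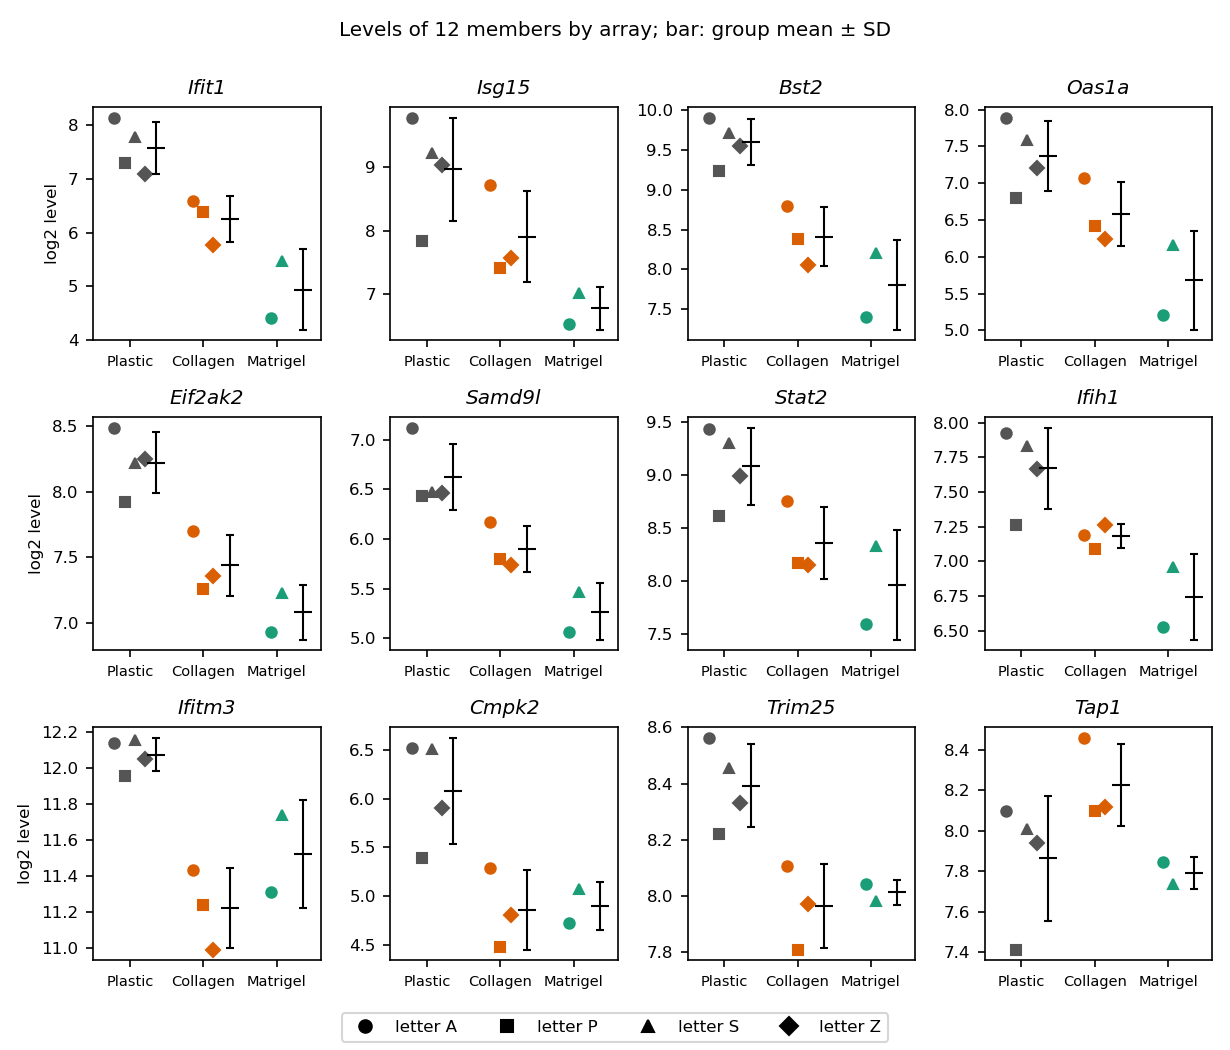
Log2 level (y axis) of 12 members by surface (x axis), 1 panel per gene with its own scale; symbols mark the title letter of the array, and bars give the group mean ± SD (plastic n = 4, collagen n = 3, Matrigel n = 2). Ifit1, Eif2ak2 and Samd9l fall into 3 separate ranges, Ifitm3, Cmpk2 and Trim25 have their lowest mean on collagen, and Tap1 has its highest mean on collagen.

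Of the 7 measured members in the group of membrane proteins, GTPases and other effectors, 3 fell on Matrigel and 2 on collagen. Bst2 encodes tetherin, which holds budding virions at the cell surface, and its promoter carries the overlapping pair of response element cores shown above. It read 9.91, 9.23, 9.72 and 9.55 on plastic, 8.79, 8.38 and 8.06 on collagen, and 7.41 and 8.20 on Matrigel. Every plastic array lay above every array of either matrix, and the Matrigel and collagen ranges overlapped. Bst2 fell by 1.80 on Matrigel (SE 0.28, limma adjusted p = 0.0052), a 3.47-fold difference, and by 1.19 on collagen (SE 0.24, adjusted p = 0.0235). The collagen call was lost without collagen array P, collagen array Z, plastic array A, plastic array S or plastic array Z.

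Ifitm3, which blocks entry of viruses from endosomes, read 12.14, 11.95, 12.16 and 12.05 on plastic, 11.43, 11.24 and 10.99 on collagen, and 11.31 and 11.74 on Matrigel. It had a narrow spread on plastic (SD 0.09) and no plastic array in the range of a matrix. Ifitm3 fell on collagen by 0.85 (SE 0.13, limma adjusted p = 0.00636) and kept passing in all 20 alternatives, while on Matrigel it differed by -0.55 (SE 0.15, adjusted p = 0.0502). Ifi27, which encodes a small hydrophobic membrane protein, read 11.35, 11.20, 11.32 and 11.20 on plastic, 11.50, 11.24 and 11.05 on collagen, and 10.75 and 10.86 on Matrigel. Collagen spanned the whole plastic range, and both Matrigel arrays lay below it. Ifi27 fell on Matrigel by 0.46 (SE 0.12, limma adjusted p = 0.0439), a call lost when any of 7 arrays was left out, and collagen minus plastic was 0.00 (SE 0.11, adjusted p = 0.993). The Matrigel call of Ifi27 was also lost after repeated quantile normalization, with every entry tested, with array weights, with only plastic arrays A and S and with the macrophage covariate, at adjusted p-values of up to 0.283 by limma. Ifi44 read 5.76, 5.38, 5.62 and 5.76 on plastic, 5.59, 4.90 and 5.32 on collagen, and 4.76 and 4.87 on Matrigel. The Matrigel arrays were again the lowest, and Ifi44 fell there by 0.82 (SE 0.18, limma adjusted p = 0.0248), a call lost without Matrigel array A, Matrigel array S, plastic array A or plastic array Z, with array weights, with only plastic arrays A and S and with the macrophage covariate. On collagen it differed by -0.36 (SE 0.16, adjusted p = 0.278).

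Gbp2, a guanylate-binding protein directed at pathogen vacuoles, differed by -0.83 on Matrigel (SE 0.26, limma adjusted p = 0.0858) and by -0.58 on collagen (SE 0.23, adjusted p = 0.21). Rtp4, a receptor transporter protein gene, differed by -1.03 on Matrigel (SE 0.38, limma adjusted p = 0.141) and -0.65 on collagen (SE 0.34, adjusted p = 0.349). Lgals3bp, which encodes a secreted galectin-binding glycoprotein, differed by -0.29 on Matrigel (SE 0.18, limma adjusted p = 0.388) and -0.19 on collagen (SE 0.16, adjusted p = 0.601). With the title letter as a block Lgals3bp was at -0.51 on Matrigel (limma adjusted p = 0.0246). For Gbp2 and Rtp4 the Matrigel arrays lay below all plastic arrays, whereas those of Lgals3bp overlapped with plastic.

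In the ISG15 conjugation and PARP9/DTX3L group, 2 of 6 fell on Matrigel and 1 on collagen. Isg15, the ubiquitin-like protein attached to others during an interferon response, read 9.77, 7.84, 9.23 and 9.03 on plastic, 8.73, 7.42 and 7.56 on collagen, and 6.54 and 7.02 on Matrigel. Both Matrigel arrays lay below all others, and plastic array P lay within the collagen range. Isg15 fell on Matrigel by 2.19 (SE 0.53, limma adjusted p = 0.0336), a 4.55-fold difference, and differed on collagen by -1.06 (SE 0.46, adjusted p = 0.261). The Matrigel call was lost without either Matrigel array, without plastic array A, S or Z, with the compared groups only, with array weights and with the macrophage covariate. Usp18, the protease that removes ISG15 and restrains the interferon receptor, read 8.25, 6.67, 7.95 and 7.49 on plastic, 7.76, 6.87 and 6.84 on collagen, and 5.64 and 6.41 on Matrigel. It too was lowest on Matrigel, at -1.56 against plastic (SE 0.45, limma adjusted p = 0.0636), and its collagen range lay inside that of plastic, at -0.43 (SE 0.40, adjusted p = 0.632).

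Parp9, which forms a complex with the ubiquitin ligase DTX3L, read 7.95, 7.12, 7.40 and 7.51 on plastic, 7.39, 6.60 and 7.06 on collagen, and 6.45 and 6.41 on Matrigel. The Matrigel arrays nearly coincided below all others, and Parp9 fell there by 1.07 (SE 0.25, limma adjusted p = 0.0299). That call was lost without Matrigel array A, Matrigel array S, plastic array A or plastic array Z, with array weights, with only plastic arrays A and S and with the macrophage covariate, and on collagen the difference was -0.48 (SE 0.22, adjusted p = 0.287). Dtx3l itself read 7.59, 6.70, 6.89 and 7.33 on plastic, 7.33, 6.49 and 6.76 on collagen, and 6.76 and 6.18 on Matrigel, with overlapping groups at -0.66 on Matrigel (SE 0.30, limma adjusted p = 0.234). Trim25, a ubiquitin and ISG15 ligase that acts on RIG-I, read 8.56, 8.22, 8.45 and 8.33 on plastic, 8.11, 7.81 and 7.97 on collagen, and 8.04 and 7.98 on Matrigel. Matrix arrays lay below plastic throughout, with a fall on collagen of 0.43 (SE 0.10, limma adjusted p = 0.0418) that was lost when any of 7 arrays was left out, with every entry tested, with the compared groups only and with the macrophage covariate, and -0.38 on Matrigel (SE 0.11, adjusted p = 0.0747). Herc6, an ISG15 ligase gene in rodents, differed by -0.57 on Matrigel (SE 0.25, limma adjusted p = 0.207) and -0.46 on collagen (SE 0.22, adjusted p = 0.309), and with the title letter as a block by -0.87 on Matrigel (adjusted p = 0.0154).

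None of the 4 class I processing members passed in any comparison. Tap1, a subunit of the transporter that carries peptides into the endoplasmic reticulum, read 8.10, 7.41, 8.01 and 7.94 on plastic, 8.46, 8.10 and 8.12 on collagen, and 7.85 and 7.74 on Matrigel. Plastic array A reached the lowest collagen array, so that these groups touched, and the collagen mean was the highest, at 0.36 (SE 0.17, limma adjusted p = 0.293). Matrigel minus plastic was -0.07 (SE 0.19, 95% interval -0.50 to 0.36, limma adjusted p = 0.879). Tap2, the other subunit, read 6.97, 6.69, 7.02 and 6.90 on plastic, 7.26, 6.99 and 7.01 on collagen, and 6.87 and 6.99 on Matrigel. It differed by 0.03 on Matrigel (SE 0.11, 95% interval -0.23 to 0.30, limma adjusted p = 0.907) and by 0.19 on collagen (SE 0.10, adjusted p = 0.361). Psmb8 and Psmb9 encode catalytic subunits of the immunoproteasome. Psmb8 read 8.39, 8.62, 8.79 and 8.35 on plastic, 8.19, 8.61 and 8.16 on collagen, and 7.76 and 8.20 on Matrigel, at -0.56 on Matrigel (SE 0.19, limma adjusted p = 0.101). Psmb9 read 8.24, 7.68, 8.17 and 7.97 on plastic, 8.13, 7.95 and 7.82 on collagen, and 7.66 and 7.65 on Matrigel, at -0.36 (SE 0.15, adjusted p = 0.199). For both, the Matrigel arrays lay below all plastic arrays while the collagen arrays overlapped with plastic.

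Comparing arrays of the same letter, each member gives 1 difference per letter with no test. On Matrigel minus plastic, 36 of 37 members were lower for letter A, with a median of -1.40, and 37 for letter S, with a median of -0.91. These letters were not read as pairs there, and plastic arrays A and S both lay above P and Z in 32 members. On collagen minus plastic, 33 were lower for letter A, 29 for P and 35 for Z, with medians of -0.65, -0.37 and -0.58, and 29 members were lower for all 3 letters. Over all genes, between 44.5% and 51.0% were lower in these comparisons of a letter. Letter A is the only one on all 3 surfaces, and there 33 of 37 members ran from plastic through collagen to Matrigel in falling order, an order that 19.4% of all genes had. Matrigel array A lay below collagen array A in all 37. Within its own surface, array A was the highest in 27 members on plastic and in 35 on collagen, and the lower in 32 on Matrigel. This order widens the letter A differences of Matrigel from plastic and from collagen. For collagen minus plastic, array A lay above its group mean on both surfaces, by a median over the members of 0.35 on each.

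**Figure D4:**
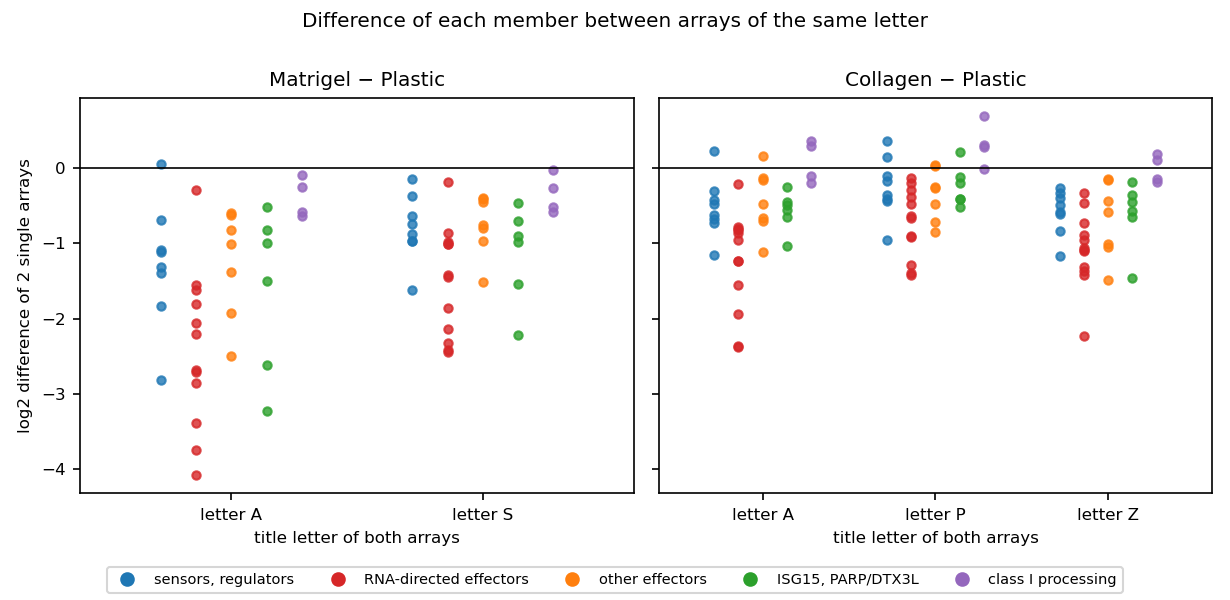
Log2 difference between 2 single arrays of the same title letter (y axis) for each of the 37 members, 1 point per member, coloured by role, with the letter on the x axis (Matrigel minus plastic on the left, collagen minus plastic on the right). Points lie below 0 for 36 and 37 members on the left and for 33, 29 and 35 on the right, and class I processing members are among the points above 0 on collagen for each letter. The letters on the left are A and S, whose plastic arrays both lay above P and Z in 32 members.

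Members also moved together among arrays of the same surface. On plastic, array A was the highest in 27 members and array S in 10, array P was the lowest in 34, and A and S both lay above P and Z in 32, an order that 16.4% of all genes had. Over all genes, array A was the highest in 24% and array S in 26.4%, and array P was the lowest in 25%. On collagen, array A was the highest in 35 members, beside 39.8% of all genes. On Matrigel, array A was the lower of the pair in 32, beside 51% of all genes. The median SD over the members was 0.35 on plastic, 0.35 on collagen and 0.31 on Matrigel, where over all genes it was 0.12, 0.11 and 0.10. The mean level of all 37 members was 8.16, 7.26, 8.03 and 7.63 on the plastic arrays, 7.46, 6.90 and 6.91 on collagen and 6.55 and 7.001 on Matrigel. The lowest plastic array, P, thus lay below the highest collagen array, A, in this mean. The Matrigel arrays were both below plastic, while Matrigel array S lay within the collagen range. The mean of the macrophage markers was 6.86, 6.12, 7.17 and 6.27 on the plastic arrays, also higher for A and S than for P and Z. On collagen it was 6.13, 6.195 and 7.02, and so lowest for A, where the members were highest. On Matrigel it was 7.39 and 7.68, lower for A, as were the members.

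**Figure D5:**
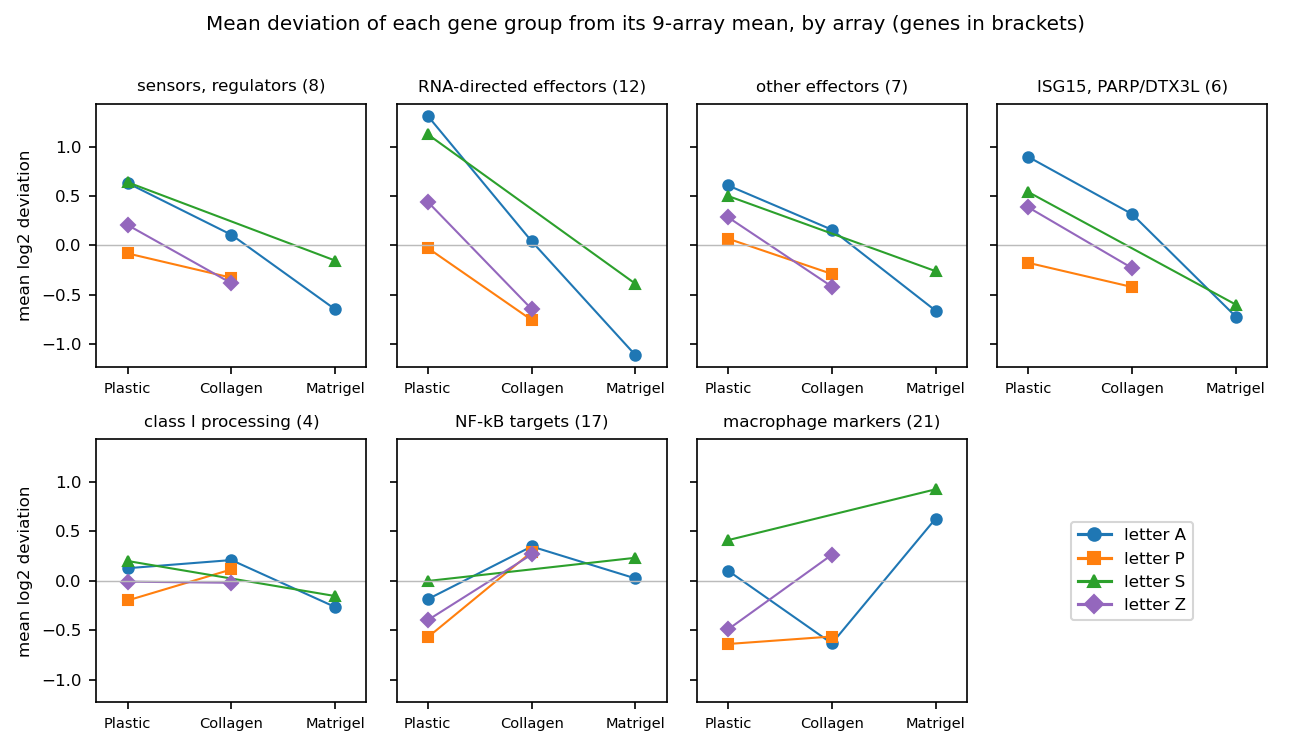
Mean log2 deviation of a gene group from its own 9-array mean (y axis) on each array, by surface (x axis) and title letter (symbols joined by lines), for the 5 role groups of members, 17 NF-kB targets and 21 macrophage markers; letter S has no collagen array and letters P and Z no Matrigel array. The first 4 groups run down from plastic to the matrices for every letter, the NF-kB targets run up from plastic to collagen, and the macrophage markers are highest on the Matrigel arrays.

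Upstream of these genes, 9 of 16 listed interferon ligands and receptors were measured and none passed in any comparison. Ifna4, Ifna5, Ifnb1, Ifnk and Ifng were dim on all surfaces, so no fold is given. The type I receptor subunit Ifnar1 read 8.53 ± 0.13 (SD, n = 4) on plastic, 8.25 ± 0.10 (n = 3) on collagen and 8.38 ± 0.20 (n = 2) on Matrigel. Its differences were -0.15 on Matrigel (SE 0.12, limma adjusted p = 0.506) and -0.27 on collagen (SE 0.10, adjusted p = 0.184). Ifngr1, the ligand-binding subunit for interferon gamma, differed by -0.05 on Matrigel (SE 0.12, limma adjusted p = 0.872) and by -0.23 on collagen (SE 0.11, adjusted p = 0.307). Tyk2 and Ifnar2 were not analysed here.

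Of 16 measured JAK-STAT signalling and feedback genes, 1 rose and 1 fell on Matrigel against plastic, near the 10.4% of all genes that passed there, and 3 fell on collagen, where 6.12% of all genes passed. Irf2, a repressor at interferon response elements, read 6.48, 6.31, 6.53 and 6.23 on plastic, 6.48, 6.48 and 6.33 on collagen, and 6.90 and 7.11 on Matrigel. It rose on Matrigel by 0.62 against plastic (SE 0.11, limma adjusted p = 0.00923) and by 0.58 against collagen (SE 0.11, adjusted p = 0.04). Stat3, the main transducer of interleukin-6 signals, fell by 0.42 on Matrigel (SE 0.11, limma adjusted p = 0.0449) and by 0.47 on collagen (SE 0.10, adjusted p = 0.0232). Jak1, the kinase shared by the interferon receptors, fell on collagen by 0.51 (SE 0.10, limma adjusted p = 0.0212) and differed on Matrigel by -0.39 (SE 0.12, adjusted p = 0.0736). The phosphatase gene Ptpn1 fell on collagen by 0.42 (SE 0.07, limma adjusted p = 0.0126). Stat5a rose on Matrigel against collagen by 0.84 (SE 0.15, limma adjusted p = 0.0288).

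Among 21 measured genes that sense nucleic acids upstream of interferon, 3 rose and 1 fell on Matrigel, and 2 fell on collagen. Over all genes, 4.52% rose and 5.85% fell on Matrigel, and 3.17% fell on collagen, so the 1 fall on Matrigel is near that share. The kinase gene Ikbke rose on Matrigel by 0.71 (SE 0.14, limma adjusted p = 0.0164), Irak1 by 0.43 (SE 0.09, adjusted p = 0.0189) and the transcription factor gene Irf3 by 0.36 (SE 0.09, adjusted p = 0.0337). Trex1, a DNase that limits cytosolic DNA, fell there by 0.52 (SE 0.14, limma adjusted p = 0.0493). The adaptors Mavs, used by RIG-I and MDA5, and Myd88, used by Toll-like receptors, fell on collagen by 0.57 (SE 0.10, limma adjusted p = 0.012) and 0.32 (SE 0.07, adjusted p = 0.0352). Rig1, the rat gene for RIG-I, differed by -0.90 on Matrigel (SE 0.30, limma adjusted p = 0.101) and by -0.71 on collagen (SE 0.26, adjusted p = 0.182). The genes that passed in this group moved in both directions on Matrigel, with a median over the 21 of 0.02, beside -0.83 over the members.

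A further 47 measured interferon-induced genes outside the list had 12 that fell and none that rose on Matrigel, 6 that fell on collagen and 1 that fell on Matrigel against collagen. Over all genes, the shares that fell in these comparisons were 5.85%, 3.17% and 1.45%. The medians over the 47 were -0.47 on Matrigel and -0.40 on collagen. Lgals9, which encodes a galectin, read 9.47, 9.17, 9.13 and 9.10 on plastic, 7.33, 6.79 and 6.04 on collagen, and 5.43 and 6.01 on Matrigel. With no overlap between plastic and either matrix, it fell by 3.50 on Matrigel (SE 0.31, limma adjusted p = 0.000622) and by 2.50 on collagen (SE 0.28, adjusted p = 0.00142), the widest difference of any interferon-induced gene tested here on Matrigel. Ifi27l2b, a relative of Ifi27, read 9.23, 8.28, 8.76 and 8.73 on plastic, 7.67, 7.05 and 6.72 on collagen, and 5.75 and 6.61 on Matrigel. It fell by 2.57 on Matrigel (SE 0.34, limma adjusted p = 0.00281) and by 1.60 on collagen (SE 0.30, adjusted p = 0.0157), where Ifi27 itself differed by 0.00. Ifitm1, of the same family as Ifitm3, read 10.06, 9.67, 10.01 and 9.71 on plastic, 8.11, 7.99 and 7.78 on collagen, and 8.18 and 9.002 on Matrigel. Like Ifitm3 it was lowest on collagen, with a fall of 1.90 there (SE 0.19, limma adjusted p = 0.000922) and of 1.28 on Matrigel (SE 0.22, adjusted p = 0.00877). Apol9a fell on Matrigel by 1.49 against plastic (SE 0.22, limma adjusted p = 0.00443) and by 1.23 against collagen (SE 0.23, adjusted p = 0.0335). On collagen, Gca and Pnpt1 fell by 0.97 (SE 0.18, limma adjusted p = 0.0131) and 0.45 (SE 0.08, adjusted p = 0.0134).

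Of 27 measured genes of class I presentation and the proteasome outside the list, 3 fell on Matrigel and none passed on collagen, with medians of -0.19 and -0.11. The Matrigel count is close to the share of all genes that passed in either direction there (10.4%), and 5.85% of all genes passed as lower. The class I genes RT1-N3 and RT1-T24-1 fell on Matrigel by 0.53 (SE 0.08, limma adjusted p = 0.00474) and 0.70 (SE 0.18, adjusted p = 0.045). Tapbpl, a peptide editor related to tapasin, fell by 0.51 (SE 0.12, limma adjusted p = 0.0325). RT1-N3 also fell against collagen, by 0.52 (SE 0.08, limma adjusted p = 0.0203). RT1 genes are near-identical to each other, so that their probes may not tell them apart.

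NF-kB targets, an inflammatory group induced by other routes, mostly went the other way. Of 17, 6 rose on Matrigel and 9 on collagen, and none fell in either. Over all genes 4.52% rose on Matrigel and 2.95% on collagen. In sign, 5 of the 17 were lower on Matrigel and 4 on collagen, 1 of these at an unadjusted p under 0.05 by limma. The medians were 0.29 and 0.44, with ranges of -1.18 to 1.34 and -2.16 to 2.18. Among those that rose, the cytokine gene Il6 read 7.50, 7.09, 7.93 and 7.30 on plastic, 9.32, 9.46 and 9.33 on collagen, and 8.45 and 8.75 on Matrigel. Its 3 surfaces were separate, with collagen the highest, at a rise of 1.92 on collagen (SE 0.18, limma adjusted p = 0.000667) and of 1.15 on Matrigel (SE 0.20, adjusted p = 0.00986). The neutrophil chemokine gene Cxcl1 rose by 1.37 on collagen (SE 0.09, limma adjusted p = 0.000197) and by 1.00 on Matrigel (SE 0.11, adjusted p = 0.00122). Nfkbiz, an NF-kB cofactor gene, rose by 2.03 on collagen (SE 0.11, limma adjusted p = 4.8e-05) and by 1.14 on Matrigel (SE 0.12, adjusted p = 0.00122), and fell by 0.89 on Matrigel against collagen (SE 0.13, adjusted p = 0.0145).

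Of the 21 measured macrophage markers, 3 rose on Matrigel against plastic, Itgam, Itgb2 and Laptm5, and 18 did not pass, with 1 of the 21 lower in sign. Over all genes 4.52% rose there. By limma, 12 of the 21 reached an unadjusted p under 0.05 on Matrigel, all of them higher, beside 24.1% of all genes in either direction. In 13 both Matrigel arrays lay above all plastic arrays, beside 1967 of all 14506 genes. On collagen none passed, with 2 at an unadjusted p under 0.05 by limma, 11 lower in sign and a median of -0.08. The list mean per array ran from 6.12 to 7.17 on plastic, from 6.13 to 7.02 on collagen and from 7.39 to 7.68 on Matrigel, with a median difference of 1.04 on Matrigel. The tissue-resident macrophage genes Clec4f and Marco were dim on every surface. With the macrophage mean as a covariate in the fit, 4 members fell on Matrigel against plastic and 36 were lower in sign, with a median of -1.19. Of all 14506 genes, 461 passed in that fit, 257 as lower, beside 1504 and 849 without the covariate. In the islet and acinar lists, 5 of 9 and 2 of 9 genes rose on Matrigel, and the part of these cells in the results was not tested.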

How the data were processed

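Total RNA from rat pancreatic stellate cells on plastic, collagen I or Matrigel was measured on 9 Affymetrix Rat Gene 1.0 ST arrays. The deposited values are log2 expression levels made by the authors with RMA, per the submitters' processing notes. The software version and genome build were not given in the sources used here. Reported values rest on the deposited levels without further normalization. Of 29215 entries, 15310 had 1 gene symbol in the probe table, 323 had several and 13582 had none. Where a gene had several entries, that with the highest mean stood for it, so 804 entries were left out and 14506 genes remained. No member had more than 1 entry. The deposited values of 8192 genes, 1 of them a member, were identical on at least 2 arrays.

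One linear model over all 9 arrays gave the group means (limma 3.58.1, R 4.3.3, 6 residual degrees of freedom), with a two-sided test and Benjamini-Hochberg adjustment over all genes in each comparison, and no filter on low values. Precision is limited by the number of arrays. In simulated data, the share of genes changed by 1 (log2) that passed was 87% for Matrigel against plastic. It was 91% for collagen against plastic and 85% for Matrigel against collagen. False calls numbered 11, 16 and 10 among 14506 genes. Members were not treated apart in that simulation. Their median SD on plastic was 0.35, beside 0.12 over all genes, so these shares do not give the recovery of members.

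All members were described whatever their values. Of the other pathway lists, counted in full (137 of 178 genes measured), up to 4 genes per comparison with the smallest p among those past the threshold were named. Others, such as Ifnar1, Ifngr1, Rig1 and the marker genes, were named whatever their result. The members and lists were chosen with earlier results of these data known. Across genes, the deviations from the group mean of a collagen array and of the plastic array with its title letter correlated at r = 0.196 (A), 0.234 (P) and 0.269 (Z), so letters were read as pairs there, although collagen array A correlated as much with plastic array S (0.243). For Matrigel and plastic, which share 2 letters, r was -0.131 for A and 0.406 for S, and letters were not read as pairs. The deviations of the 2 Matrigel arrays are exact opposites, so that r with any other array differs between them in sign alone.

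The alternatives were re-centring on array medians, quantile normalization again, a filter at the 40th percentile of mean level, every entry of the value table, the mean of a gene's entries, only the compared groups, trend and robust moderation, array weights, the letter as a fixed or random block, only plastic arrays A and S, the macrophage mean as a covariate, and each array left out in turn. Promoter windows are RefSeq sequences on GRCr8, searched for both motifs on both strands. Coordinates of the array's probes were not used.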

Additional observations from a re-analysis of the deposited data

Results flagged for a closer look

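On plastic, Samd9l read 7.12 on array A, whereas the other 3 arrays lay between 6.43 and 6.48. The gap to the nearest array was 0.936 of the group's whole range, above Dixon's critical value of 0.829 for 4 samples. Of 37 members tested in this way on plastic 1 was marked, and chance marks about 1 in 20 such groups. Leaving out that array, Samd9l still passed on Matrigel against plastic.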

How the results depend on the processing

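On Matrigel against plastic, the 11 members became 18 with only genes above the 40th percentile tested, 7 with only the compared groups, 6 with array weights, 33 with the title letter as a fixed replicate block (3 residual degrees of freedom), 22 with it as a random block and 4 with the macrophage covariate. All genes that passed went from 1504 to 1632 of the 8703 tested with that filter, 1082 with only the compared groups and 1217 with array weights. They numbered 1504 with the fixed block, 1760 with the random block, 628 with only plastic arrays A and S and 461 with that covariate. On collagen, the 5 members became 8 with that filter, 3 with every entry tested, 8 with array weights and 10 with the replicate block. All genes that passed there went from 888 to 1044 of 8703 with the filter and to 1029 of 29215 entries with every entry tested. They numbered 1144 with array weights and 1072 with the replicate block. Between Matrigel and collagen no member passed in any fit, and all genes that passed went from 387 to 0 with only the compared groups, 257 with array weights, 66 with the replicate block and 1 with the covariate. Without 1 array, members that passed ranged from 2 to 17 on Matrigel and from 1 to 10 on collagen, and all genes from 759 to 1461, from 552 to 870 and, between Matrigel and collagen, from 68 to 352. A lone Matrigel array was assumed to vary like the other groups. The cause of these changes was not tested.

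No member that passed changed direction in any fit. Directions that turned belonged to differences that had not passed. On Matrigel against plastic, Irf1 was -0.104 and Tap2 -0.083 with the replicate block, -0.052 and -0.066 with only plastic arrays A and S, and Tap2 was -0.061 with the covariate. On collagen, Ifi27 was 0.035 after re-centring, 0.015 after quantile normalization, 0.012 with array weights, 0.034 with the replicate block and 0.0033 with the random block, and Psmb9 was 0.0076 with the replicate block. Between Matrigel and collagen, Mx1 was 0.073 with array weights. With the replicate block Irf1 was -0.091, Oasl -0.80, Adar -0.031, Rsad2 -0.47, Cmpk2 -0.54 and Trim25 -0.078. With the random block Oasl was -0.090 and Cmpk2 -0.082. With the covariate Oasl was -0.82, Rsad2 -0.81, Cmpk2 -0.59 and Trim25 -0.096.

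Leaving out 1 array, the Matrigel minus collagen difference ranged from -0.15 to 0.26 for Cmpk2, -0.58 to 0.016 for Dhx58, -0.26 to 0.066 for Ifi35, -0.96 to 0.17 for Ifit2, -0.80 to 0.38 for Ifit3, -0.029 to 0.41 for Irf1, -0.93 to 0.084 for Irf7, -0.50 to 0.21 for Irf9, -0.27 to 0.063 for Lgals3bp, -0.42 to 0.28 for Mx1, -1.07 to 0.13 for Mx2, -0.13 to 0.041 for Nmi, -0.26 to 0.45 for Oasl, -0.78 to 0.036 for Rtp4 and -0.027 to 0.12 for Trim25. On collagen against plastic it ranged from -0.12 to 0.11 for Ifi27, -0.29 to 0.15 for Irf1 and -0.16 to 0.030 for Psmb9, and on Matrigel against plastic from -0.22 to 0.0060 for Tap1 and -0.035 to 0.092 for Tap2.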
